A study of Mus musculus with 66 samples.

Results

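The genes described here are 8 genes of cholesterol synthesis and its control, Hmgcs1, Idi1, Fdps, Sqle, Lss, Cyp51, Insig1 and Srebf2, taken by name from the 22489 genes of an mRNA-Seq expression table. They were chosen by name, with earlier results of these data known. The table covers 20 libraries of C2C12 cells, a mouse myoblast line that fuses into myotubes, with 10 libraries of growing and 10 of differentiated cells. In each state 1 library came from untransfected C2C12 cells (WT) and 9 from lines that carry an N-terminal GFP-tagged histone H3 behind a doxycycline-inducible promoter. The 6 lines with H3.3, H3mm7, H3mm11, H3mm12, H3mm13 or H3mm16 are called H3.3-type here, and the 3 lines with H3.1, H3.2 or H3t are called H3.1/H3.2-type. The lines were stable transfectants selected for GFP, and each gave a single library per state, so a line's own value has no replicate and lines are the units of every test. Growing cells were harvested at 60 to 70% confluence in medium with 20% fetal bovine serum. Differentiated cells were harvested 48 h after a confluent culture had been moved to 2% horse serum, so the state of the cells and the serum around them cannot be told apart.

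Cells make cholesterol from acetyl-CoA through mevalonate, isoprenoid diphosphates, squalene and lanosterol. The genes of this route are switched on together by SREBP2, a membrane-bound transcription factor that is released from the endoplasmic reticulum when sterols are scarce. INSIG proteins hold it back when sterols are plentiful, and Insig1 is itself a target of SREBP2. In muscle, cholesterol is a part of the plasma membrane that fusing myoblasts rebuild, and the same route supplies isoprenoids for protein prenylation.

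Promoters are shown as a description of sequence, and their part in the levels of the members was not tested. The promoter table of RefSeq (mouse build GRCm38.p6) matched 6 of the 8 genes, and Fdps and Sqle had no entry. The 250 bases before the start of 4 genes are printed in the direction of transcription. Insig1 at chr5:28071162-28071411 (+ strand) and Cyp51 at chr5:4104698-4104947 (- strand) were the pair, among the genes with a promoter entry, with the largest differences between states. Hmgcs1 at chr13:119690101-119690350 (+ strand) held the 9-letter SREBP motif, and Srebf2 at chr15:82147019-82147268 (+ strand) encodes the factor itself. Capitals mark the SREBP motif TCACNCCAC or its shorter form TCACCCCA, the NF-Y motif CCAAT and the Sp1 motif GGGCGG, each also in its reverse complement.
Insig1: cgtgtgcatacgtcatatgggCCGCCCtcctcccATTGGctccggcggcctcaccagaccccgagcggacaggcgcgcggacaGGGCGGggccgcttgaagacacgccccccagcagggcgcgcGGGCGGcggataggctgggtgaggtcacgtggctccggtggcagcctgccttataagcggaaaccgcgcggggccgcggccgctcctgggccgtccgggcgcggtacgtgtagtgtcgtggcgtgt
Cyp51: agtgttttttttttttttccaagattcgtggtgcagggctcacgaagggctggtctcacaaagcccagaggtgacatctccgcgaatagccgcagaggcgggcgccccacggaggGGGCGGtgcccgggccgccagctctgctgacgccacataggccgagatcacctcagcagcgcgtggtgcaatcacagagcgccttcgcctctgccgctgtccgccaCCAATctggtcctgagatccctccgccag
Hmgcs1: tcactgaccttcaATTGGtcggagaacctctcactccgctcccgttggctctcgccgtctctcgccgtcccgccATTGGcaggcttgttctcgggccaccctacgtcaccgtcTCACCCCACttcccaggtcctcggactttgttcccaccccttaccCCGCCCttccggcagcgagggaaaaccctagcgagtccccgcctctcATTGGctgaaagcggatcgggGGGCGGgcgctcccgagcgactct
Srebf2: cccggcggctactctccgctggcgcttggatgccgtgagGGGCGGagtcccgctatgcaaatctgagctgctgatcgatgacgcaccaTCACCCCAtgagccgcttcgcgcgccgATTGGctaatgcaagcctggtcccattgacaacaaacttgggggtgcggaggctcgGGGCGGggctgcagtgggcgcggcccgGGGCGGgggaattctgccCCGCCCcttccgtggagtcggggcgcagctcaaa
Both strands of the window from 250 bases before to 50 bases after the start were searched. CCAAT was in 6 of 6 member promoters and in 37.4% of all 32851 promoters of that length. GGGCGG was also in 6 of 6, against 35.7% of all promoters. TCACNCCAC was in the Hmgcs1 promoter of the 6, against 1.24% of all. TCACCCCA, which overlaps it and was chosen after the sequences had been seen, was in those of Hmgcs1 and Srebf2, against 1.56% of all.

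Levels are given as FPKM, fragment numbers scaled to the length of the transcript and to the mapped fragments of the library. Muscle markers followed the labels, with the summed level of 6 myotube markers between 5.55 and 182 FPKM in growing and between 3986 and 18135 FPKM in differentiated cells. The sum of 4 proliferation markers went from 287 to 469 FPKM in growing cells to between 2.97 and 54.0 FPKM. Of 5 adipocyte markers, Adipoq, Plin1, Lep and Cidec stayed under 1 FPKM in all 20 libraries and the sum of all 5 stayed at or under 5.25 FPKM. The sum of 3 hepatocyte markers stayed at or under 0.141 FPKM and that of 4 macrophage markers at or under 3.92 FPKM, with Emr1 at 0 throughout.

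Hmgcs1, which makes the HMG-CoA that enters the route, was listed at 0 FPKM in all 20 libraries. A listed 0 in a table without counts can be a failed estimate and does not show that the gene was not expressed, so no fold change was computed for it. In all, 3386 genes (15.1% of the table) were at 0 in every library. Hmgcs1 is absent from the mm9 annotation used here. Of 8 protein-coding neighbours of Hmgcs1 in the table, Fgf10, Nnt, Paip1 and 4833420G17Rik are in that annotation and were above 0, whereas Ccl28, Zfp131, AF067063 and Tcstv1 are not in it and were at 0 in all 20 libraries. The other 7 members had a mean of at least 1 FPKM, like 10954 genes of the table, and entered the tests.

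The question of the first comparison was how the genes of the route differed between growing and differentiated cells. Insig1, Fdps, Cyp51, Lss and Srebf2 rose on differentiation, 5 of the 7 members tested, and none fell. The increases ranged from 0.30 (Srebf2) to 1.24 (Insig1) on the log2(FPKM + 1) scale, and the median of the 7 was 0.70, against 0.04 over all genes tested. Differentiation moved most of the transcriptome, since 58.6% of all genes tested passed (30.5% higher and 28.1% lower), at an adjusted p below 0.05 by limma over 10 against 10 libraries. With the cell line as a block, 6 of the 7 rose, against 37% of all genes.

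The early enzymes of the route make and join isoprenoid units. Idi1 (chr13:8884852-8891641 in mm9, + strand) isomerises isopentenyl diphosphate. In growing cells it was at 93.4 FPKM in H3.1, 101 in H3.2, 120.4 in H3t, 67.0 in H3.3, 106 in H3mm7, 123 in H3mm11, 101 in H3mm12, 102 in H3mm13, 109 in H3mm16 and 11.2 in WT. In differentiated cells the levels in the same order were 112, 250.4, 313, 58.4, 73.7, 51.6, 177, 224, 170.1 and 13.1 FPKM. Idi1 was thus higher after differentiation in 7 of 10 lines, whereas H3.3, H3mm7 and H3mm11 were lower, and the groups overlapped. The difference was 0.37 ± 0.50 (SE) on the log2 scale, with an adjusted p of 0.543 by limma and a 95% interval from -0.66 to 1.41.

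Fdps (chr3:88897514-88905881, - strand) joins these units to farnesyl diphosphate, the branch point between sterols and prenylation. In growing cells it was at 289 FPKM in H3.1, 187 in H3.2, 161 in H3t, 226 in H3.3, 329 in H3mm7, 272 in H3mm11, 260.5 in H3mm12, 215 in H3mm13, 215 in H3mm16 and 67.0 in WT. In differentiated cells it was at 446, 684, 679.7, 493, 713, 228, 406, 646, 465 and 115 FPKM in the same order. It was the most abundant member in each of the 9 GFP-H3 lines in both states. H3mm11 was the exception to the rise, and its differentiated library and that of WT lay within the range of growing cells. The change was 1.06 ± 0.31 (SE) on the log2 scale, with an adjusted p of 0.00606 by limma.

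Sqle, Lss and Cyp51 act after squalene. Sqle (chr15:59146632-59162747, + strand) oxidises squalene and is a control point of the route. It was at 118 FPKM in H3.1, 104 in H3.2, 95.3 in H3t, 113 in H3.3, 219 in H3mm7, 119 in H3mm11, 103 in H3mm12, 102 in H3mm13, 107 in H3mm16 and 211 in WT while growing. Differentiated cells had 156, 155, 228, 159, 224, 106, 114, 176, 139 and 238 FPKM in the same order. H3mm7 and WT were high in growth and differed little between states, by 0.03 and 0.18 on the log2 scale. H3mm12, which was not high in growth, also differed little, by 0.15. Sqle was higher after differentiation in 9 of 10 lines. Its difference of 0.41 ± 0.18 (SE) did not pass (adjusted p = 0.0599 by limma) but passed with the line as a block, where the adjusted p was 0.00945.

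Lss (chr10:75994333-76019883, + strand) closes the ring of lanosterol. Growing cells had 28.1 FPKM in H3.1, 23.0 in H3.2, 16.2 in H3t, 25.5 in H3.3, 37.6 in H3mm7, 32.0 in H3mm11, 26.6 in H3mm12, 25.9 in H3mm13, 25.2 in H3mm16 and 41.4 in WT. Differentiated cells had 38.1, 61.1, 63.4, 41.2, 49.4, 18.2, 37.4, 62.7, 42.0 and 61.4 FPKM in the same order. All lines but H3mm11 were higher after differentiation, and the differentiated libraries of H3.1, H3.3, H3mm11 and H3mm12 lay under the growing WT library. Lss rose by 0.70 ± 0.19 (SE) on the log2 scale (adjusted p = 0.00414, limma).

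Cyp51 (chr5:4081145-4104746, - strand) removes a methyl group of lanosterol. Its levels in growing cells lay close together in the GFP-H3 lines, at 51.2 FPKM in H3.1, 41.1 in H3.2, 40.7 in H3t, 35.0 in H3.3, 40.6 in H3mm7, 44.6 in H3mm11, 38.4 in H3mm12, 37.9 in H3mm13 and 36.6 in H3mm16, with 73.5 in WT. After differentiation they spread to 93.7, 129, 140.3, 58.6, 47.2, 30.9, 72.8, 117, 73.0 and 141 FPKM in the same order. H3mm11 was again the line that was lower after differentiation. Cyp51 rose by 0.91 ± 0.23 (SE), with an adjusted p of 0.0022 by limma.

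Insig1 (chr5:28397952-28405201, + strand) retains the SREBP complex in the endoplasmic reticulum. In growing cells it was at 44.1 FPKM in H3.1, 50.1 in H3.2, 33.6 in H3t, 30.2 in H3.3, 54.0 in H3mm7, 48.8 in H3mm11, 45.9 in H3mm12, 42.8 in H3mm13, 43.0 in H3mm16 and 71.7 in WT. In differentiated cells it was at 109, 187, 174, 68.0, 67.9, 58.4, 107, 141, 107 and 144 FPKM in the same order. It was the member that was higher after differentiation in all 10 lines, and the 9 differentiated GFP-H3 libraries lay above the 9 growing ones, as for 11.4% of all genes tested. The growing WT library lay above the differentiated libraries of H3mm11, H3mm7 and H3.3. Insig1 rose by 1.24 ± 0.20 (SE) on the log2 scale (adjusted p = 2.03e-05, limma).

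Srebf2 (chr15:81977696-82035806, + strand) encodes SREBP2. Its growing levels were 117 FPKM in H3.1, 95.2 in H3.2, 67.6 in H3t, 119 in H3.3, 124 in H3mm7, 94.0 in H3mm11, 103 in H3mm12, 99.7 in H3mm13, 102 in H3mm16 and 93.5 in WT. The differentiated levels were 149, 99.5, 121, 141, 122, 95.2, 126, 133, 131 and 132 FPKM in the same order. The groups overlapped, and H3mm7 was the line with a slightly lower level after differentiation. Srebf2 rose by 0.30 ± 0.11 (SE), with an adjusted p of 0.0192 by limma, which became 0.0772 after quantile normalization. The annotation places Mir33 inside Srebf2 on the same strand, U6 RNA over Fdps and a long non-coding RNA over Lss, and reads of these could not be separated here.

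**Figure D1:**
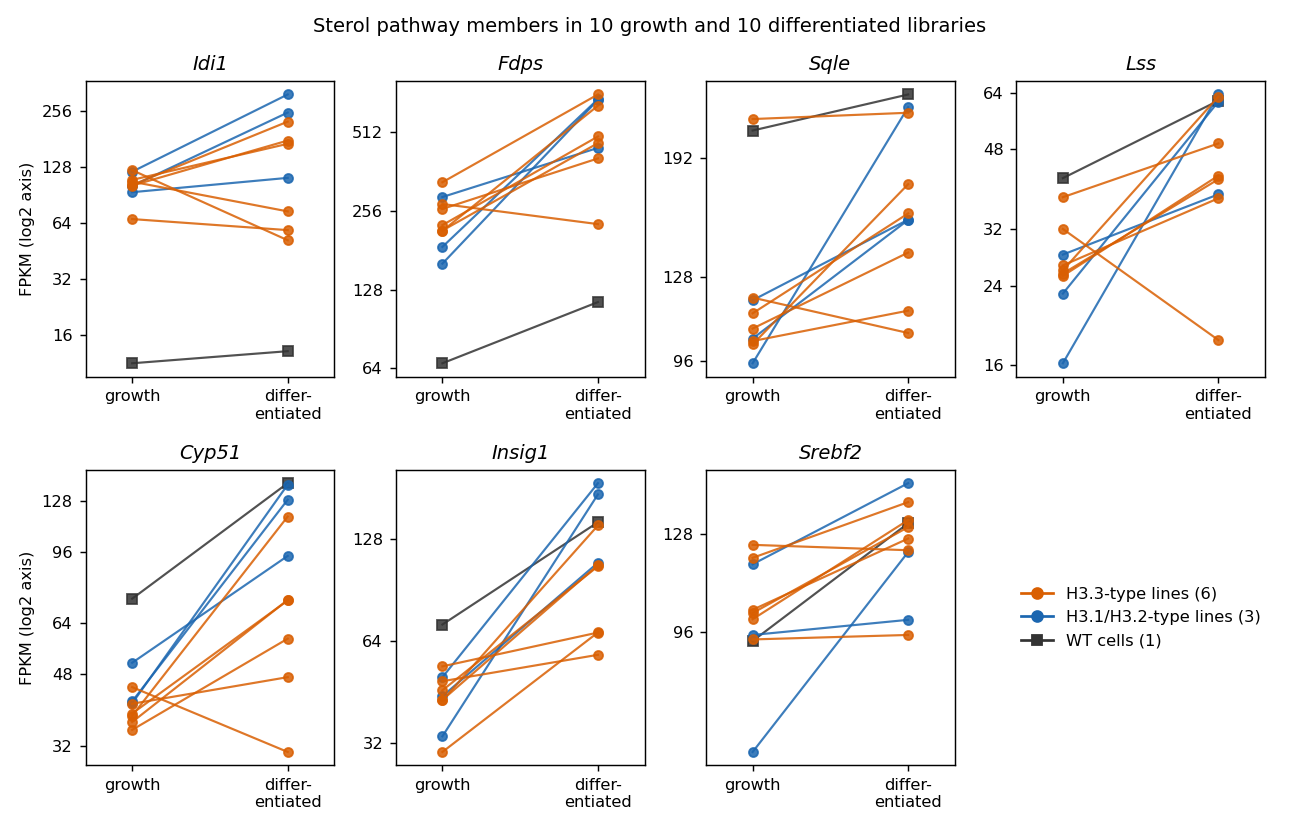
FPKM on a log2 axis for the 7 members above 0, with each line joining the growing and the differentiated library of a cell line (6 H3.3-type in orange, 3 H3.1/H3.2-type in blue, WT as black squares). Insig1 is higher after differentiation in 10 of 10 lines and Idi1 in 7 of 10, and WT lies below all lines for Idi1 and Fdps.

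H3t had the largest increase of all 10 lines for each of the 7 members, from 0.84 (Srebf2) to 2.34 (Insig1) on the log2 scale. The increase starts from a low level, as the growing H3t library had the lowest mean log2(FPKM + 1) of the 7 members among the 10 growing libraries, 5.94. The differentiated H3t library had the highest of its state, 7.58. The H3t values come from columns named H3mmT, taken as H3t because it was the one line left without a column of its own name. H3mm11 had the smallest increase or the largest decrease for 6 of the 7, from 0.25 for Insig1 down to -1.24 for Idi1. For Srebf2 the smallest value was that of H3mm7, -0.02, and H3mm11 was at 0.02. WT, whose 2 libraries are not part of the GFP-H3 lines, changed in the same direction as the median line for every member, by between 0.18 (Sqle) and 0.99 (Insig1).

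**Figure D2:**
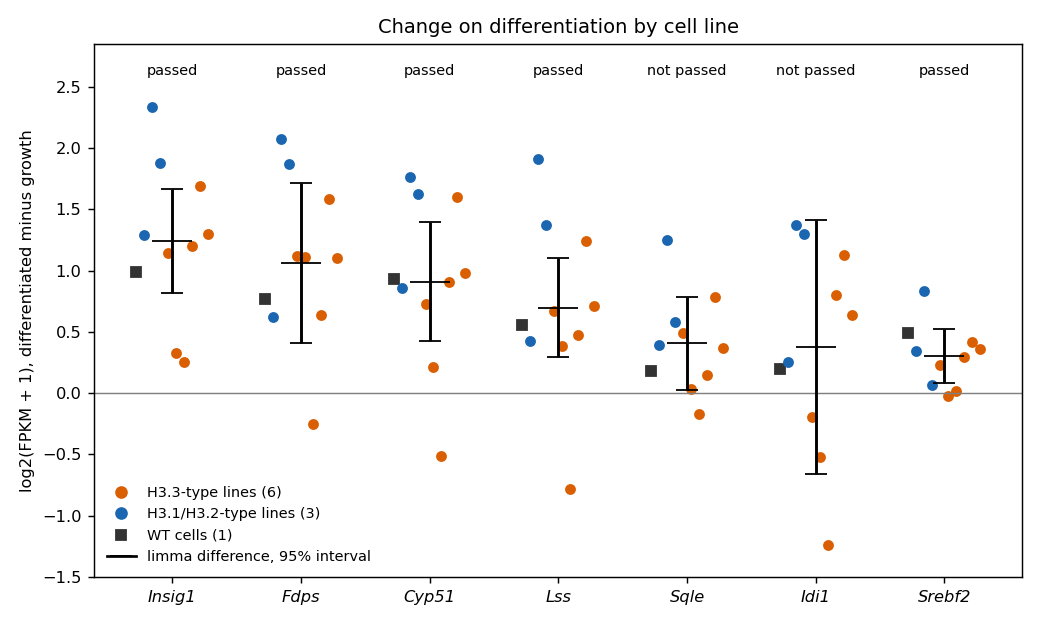
Difference in log2(FPKM + 1) between the differentiated and the growing library of each of 10 lines (points) with the limma difference over 10 against 10 libraries (black bar) and its 95% interval. The interval is from the fit without the line as a block, so it measures the spread of levels between lines, not that of the points. The H3mm11 points are the lowest of 6 members, and the intervals of Sqle and Idi1 differ in width, with Idi1 reaching from -0.66 to 1.41.

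Differentiated lines differed more in these genes than growing lines did. Over the 9 GFP-H3 lines the SD of log2(FPKM + 1) went from 0.25 in growth to 0.95 after differentiation for Idi1, from 0.16 to 0.71 for Cyp51 and from 0.26 to 0.60 for Insig1. It went from 0.32 to 0.55 for Lss and from 0.32 to 0.52 for Fdps, but from 0.36 to 0.38 for Sqle and from 0.26 to 0.21 for Srebf2. A larger SD after differentiation was thus found in 6 of 7 members, and it was found in 79.1% of all genes tested, where the median SD went from 0.21 to 0.31. As a ratio, the highest differentiated line had 6.08 times the FPKM of the lowest for Idi1, 4.54 times for Cyp51 and 1.56 times for Srebf2, which in growth were 1.83, 1.46 and 1.83 times.

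Several members ordered the differentiated lines in a similar way, and Srebf2 departed from it the most. Of the 21 pairs of members, Lss and Fdps had the highest Pearson's r over the 9 lines, 0.966. Insig1 had 0.959 with Idi1 and 0.956 with Cyp51, and Sqle had 0.852 with Fdps but 0.293 with Idi1. Fdps and Sqle thus went with Lss more than with Idi1. The mean log2(FPKM + 1) of the 7 members was highest in H3t at 7.58, followed by H3.2 at 7.41 and H3mm13 at 7.39. It was 6.98 in H3mm16, 6.97 in H3.1, 6.89 in H3mm12, 6.83 in H3mm7 and 6.67 in H3.3, and lowest in H3mm11 at 6.00. With 1 library per line the neighbours in this order cannot be separated. For Idi1, Cyp51 and Insig1, H3t, H3.2 and H3mm13 were the highest 3 lines and H3.3, H3mm7 and H3mm11 the lowest 3. Each member was then set against the mean of the other 6 over the 9 lines, which shared their libraries. Pearson's r was 0.93 for Cyp51, 0.92 for Lss, 0.87 for Insig1, 0.81 for Idi1, 0.79 for Fdps and 0.55 for Sqle, and 0.19 for Srebf2. Spearman's rho was 0.883 for Insig1, 0.867 for Cyp51, 0.783 for Idi1 and 0.767 for Lss, but 0.483 for Fdps, 0.417 for Sqle and -0.05 for Srebf2. H3mm7, among the lowest 3 for Idi1, Cyp51 and Insig1, was the highest of the 9 lines for Fdps and the second highest for Sqle. In growing cells the same r was 0.88 for Lss and 0.86 for Fdps but 0.32 for Cyp51 and -0.01 for Idi1.

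The genes outside the 8 whose differentiated levels were most like the members' mean were sought among 8529 genes with a mean of at least 5 FPKM. They were Tm7sf2 (r = 0.976), Stard4 (0.969), Sc4mol, the older symbol of Msmo1 (0.965), Nsdhl (0.958) and Dhcr7 (0.955), over 9 lines. Tm7sf2, Sc4mol, Nsdhl and Dhcr7 encode sterol-converting enzymes and Stard4 a carrier of sterols between membranes. Their differentiated levels reached from 7.89 FPKM (H3mm11) to 85.7 FPKM (H3mm13) for Tm7sf2 and from 4.41 FPKM (H3mm11) to 33.3 FPKM (H3t) for Stard4. In growing cells the 5 most alike genes were Fads1 (0.949), a fatty acid desaturase, and 1110001J03Rik, Tbc1d7, Carkd and Cog7, with r from 0.917 to 0.930.

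**Figure D3:**
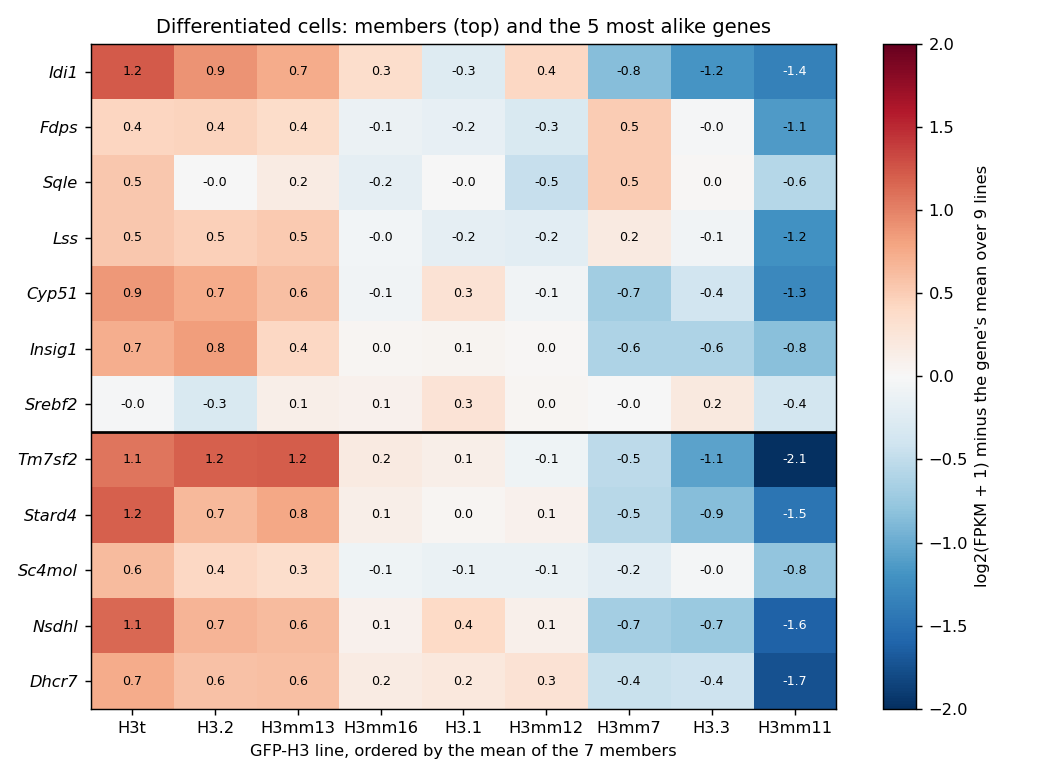
Colour and number give log2(FPKM + 1) in differentiated cells minus the gene's mean over the 9 GFP-H3 lines, for the 7 members above the black line and the 5 genes most like their mean below it. Lines run from H3t, the highest mean of the members, to H3mm11, the lowest, and the row of Srebf2 has the smallest range among the members.

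The second comparison asked whether the type of the tagged histone went with the level of these genes. No member passed in growing cells, where limma called 0.246% of all genes. No member there had an unadjusted p under 0.05, against 1029 of all 10954 genes tested. No member passed in differentiated cells either, where 2.46% of all genes were called. There 3 of the 7 members, Cyp51, Insig1 and Idi1, had an unadjusted p under 0.05, as had 2206 of all 10954 genes tested. In differentiated cells 6 of the 7 members were lower in the 6 H3.3-type than in the 3 H3.1/H3.2-type lines. The median of the 7 was -0.42, against 0.01 over all genes tested. The members share their libraries and several went together over the lines, so the 6 are not separate observations. The difference was -0.95 ± 0.27 (SE) on the log2 scale for Cyp51, with an adjusted p of 0.0692 by limma, and -0.80 ± 0.26 for Insig1 (adjusted p = 0.094 by limma). For Idi1 it was -0.94 ± 0.42 (adjusted p = 0.217 by limma), and for Srebf2 it was 0.03 with a 95% interval from -0.33 to 0.38. H3mm13 of the H3.3-type was among the highest 3 lines, against the direction of the type difference. Leaving out 1 line at a time gave Cyp51 an adjusted p from 0.0363 to 0.272 by limma. The lowest value, without H3mm13, was the only one to pass.

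**Figure D4:**
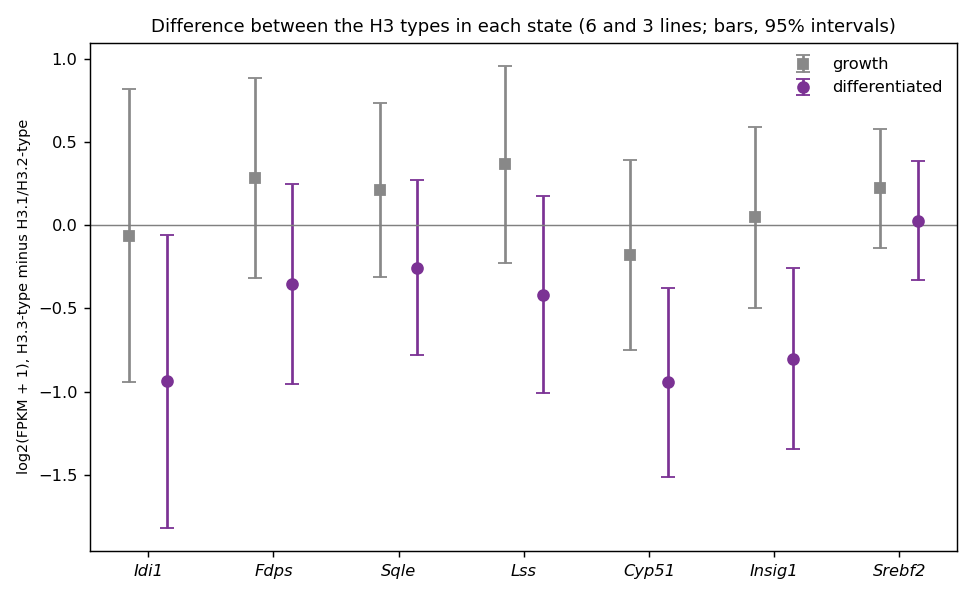
Mean log2(FPKM + 1) of the 6 H3.3-type lines minus that of the 3 H3.1/H3.2-type lines, with 95% intervals from limma, in growing (grey squares) and differentiated cells (purple circles). In growth the intervals of all 7 members include 0, and in differentiated cells those of Idi1, Cyp51 and Insig1 do not, although no member passed after adjustment.

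Within the 6 H3.3-type lines, Insig1 (0.99), Fdps (0.88) and Cyp51 (0.65 on the log2 scale) rose on differentiation, 3 of 7 members against 29% of all genes higher. Without H3mm12, H3mm13 or H3mm16 the call of Cyp51 was lost, and without H3mm11 Lss passed as well. Within the 3 H3.1/H3.2-type lines, Insig1 (1.84), Fdps (1.52), Cyp51 (1.42), Lss (1.24) and Sqle (0.74) rose, 5 of 7 against 21% of all genes higher, and without H3t only Insig1, Fdps and Cyp51 passed. The difference between these changes was tested as an interaction. It was below 0 for all 7 members, which share their libraries, with a median of -0.76 against 0.02 over all genes tested. None passed by limma, and of all genes 0% were called (1002 had an unadjusted p under 0.05). Insig1 was the only member with an unadjusted p under 0.05 (-0.85 ± 0.36 SE, adjusted p = 0.512 by limma).

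Markers of other processes differed between the same libraries. The summed level of 12 endoplasmic reticulum stress genes was between 1135 and 1448 FPKM in growing cells. In differentiated cells it was 9760 FPKM in H3mm7, 9080 in H3.3 and 6260 in H3mm11, the lines with the lowest Idi1, Cyp51 and Insig1, but also 5619 in H3.2, which had the second highest mean of the members. It lay between 1054 FPKM (H3mm12) and 2355 FPKM (H3mm13) in the other differentiated libraries, and over the 9 lines its mean log2 level had an r of -0.39 with that of the members. The proliferation markers Mki67 and Top2a were lower in the H3.3-type than in the H3.1/H3.2-type differentiated lines, by -1.27 (adjusted p = 0.0481, limma) and -1.73 (adjusted p = 0.0327, limma). Both calls were lost without H3.1, H3t, H3.3, H3mm11, H3mm13 or H3mm16, with an adjusted p of up to 0.22 for Mki67 and up to 0.174 for Top2a by limma. The other 2 of the 4 proliferation markers, Ccnb1 (-1.29, adjusted p = 0.0602 by limma) and Mcm5 (-1.44, adjusted p = 0.071 by limma), did not pass. Their part in the values of the members was not tested.

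WT cells were below every line for Idi1 and Fdps, and such gaps were not limited to sterol genes. Gapdh, a glycolytic enzyme often used as a reference gene and named here after its values were seen, was at 0.361 FPKM in growing and 0.263 FPKM in differentiated WT cells. In the 9 lines it was between 961 and 1827 FPKM in growth and between 783 and 2094 FPKM after differentiation. The WT level of Idi1 level was 0.11 times the median of the 9 lines in growth and 0.0767 times after differentiation, and that of Fdps was 0.297 and 0.233 times, both below every line in both states. WT was below every line in both states for 12.7% of all genes tested. By contrast Cyp51 in WT was 1.81 and 1.94 times the median line and above every line in both states (13% of all genes), and Insig1 and Lss in WT were above every line in growth (25.9% of all genes). Idi1 and Fdps share much of their sequence with other places. Of the 31-base words of their transcripts, 14.8% and 17.8% occur once in the mm9 genome, against 52.3% for Insig1, 97.4% for Cyp51, 99.95% for Lss and 100% for Sqle and Srebf2. Among 29 sterol genes with such a value, Idi1 and Fdps were the 2 with under 20%, and the next lowest was Acat2 at 50.8%. WT was below every line in both states for these 2 and for 0 of the other 27. The share of words was computed for sterol genes only, so it is not known for the rest of the 12.7% of genes. How WT reads were mapped is not given in the sources used here. The parts of the mapping and of the shared words in these values were not tested. Each difference between states given within a line compares libraries of that line only.

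**Figure D5:**
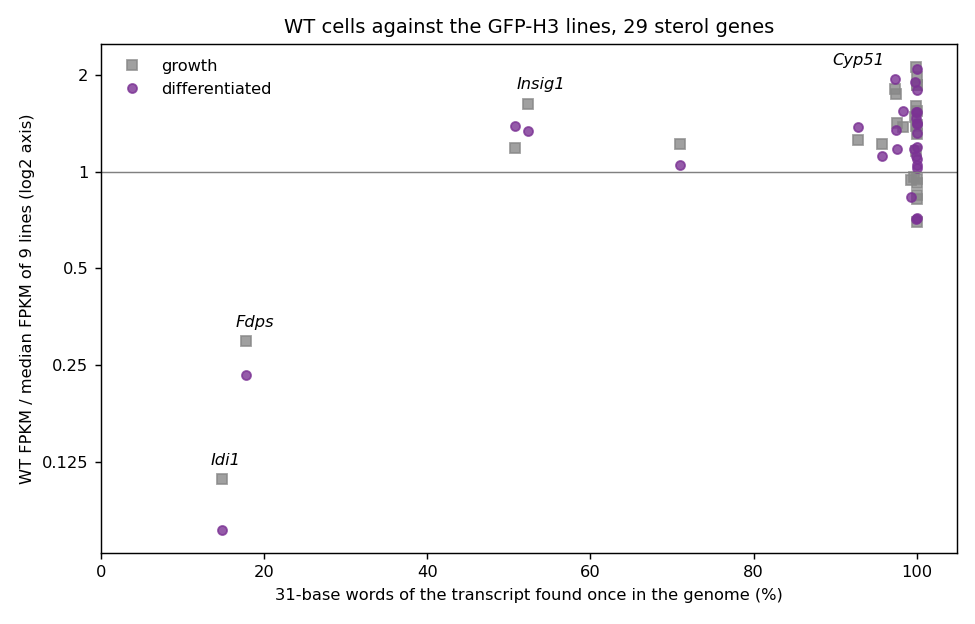
WT FPKM divided by the median FPKM of the 9 GFP-H3 lines, on a log2 axis, against the percentage of 31-base words of a transcript that occur once in the mm9 genome, for 29 sterol genes in growing (squares) and differentiated cells (circles). Idi1 and Fdps, at 14.8% and 17.8%, lie at 0.297 or under, and the other 27 genes lie at 0.698 or above.

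The remaining genes of cholesterol synthesis were described by a fixed list of 14. On differentiation 8 rose, none fell and 6 did not pass, with a median of 0.70 on the log2 scale against 0.04 over all genes. Tm7sf2 rose by 2.03, the largest change of the list, Mvd by 1.77, Fdft1, squalene synthase, by 1.17 and Sc4mol by 1.05. In differentiated cells all 14 were lower in the H3.3-type than in the H3.1/H3.2-type lines, with a median difference of -0.86 against 0.01 over all genes, given without a test of the list.

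Of 10 genes of sterol uptake and sensing, 9 were in the table and 8 entered the tests. Npc1 (0.74), Insig2 (0.58) and Mbtps2 (0.52) rose on differentiation and none fell, while Stard4 had -0.07 (adjusted p = 0.835 by limma) and Srebf1, which encodes SREBP1, had 0.03 (adjusted p = 0.855 by limma). Scap was not in the table. Of 7 genes of efflux and storage, Abca1 stayed at or under 0.173 FPKM, 4 were tested, and Apoe (1.07), Mylip and Nr1h2 rose. Apoe, a carrier of lipids between cells, was lower after differentiation in all 3 H3.1/H3.2-type lines, going from 1.66 to 1.06 FPKM in H3.1, from 1.08 to 0.5005 in H3t and from 1.03 to 0.533 in H3.2. Over these 3 lines its difference was -0.41 (adjusted p = 0.497 by limma), and within the H3.3-type lines it rose by 1.84 (adjusted p = 0.000127 by limma). In differentiated cells it was higher in the H3.3-type lines by 1.77 (adjusted p = 0.0317 by limma), a call lost without H3.1, H3t, H3.3, H3mm11, H3mm13 or H3mm16, where the adjusted p reached 0.16. The interaction of 2.25 did not pass (adjusted p = 0.265 by limma). Of 10 genes of fatty acid synthesis, 3 rose (Scd1 by 2.07, the largest) and 3 fell (Elovl6 with -0.98 the furthest, and Fasn with -0.53). These counts, and the 3 of 8 above, lie near the 30.5% of all genes that rose and the 28.1% that fell. The call of Fasn between states (adjusted p = 0.0275 by limma) was lost without H3.3, H3mm7, H3mm11, H3mm12 or H3mm16, with an adjusted p of up to 0.0783. Between the types in differentiated cells Elovl6 (-1.12, adjusted p = 0.0257 by limma) and Fasn (-0.86, adjusted p = 0.0376 by limma) were lower in the H3.3-type lines, and both calls were lost without H3.1, H3t or H3.3, that of Fasn also without H3mm11 or H3mm16. The mean level of the fatty acid genes had an r of 0.97 with that of the members over the 9 differentiated lines and 0.84 over the 9 growing ones.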

How the data were processed

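C2C12 mRNA-Seq libraries (10 growth, 10 differentiated) were analysed. For the GFP-H3 lines, alignment by the authors was to mm9 (TopHat 2.0.8), and FPKM were computed by them with cuffdiff (Cufflinks 2.0.1, default settings) and deposited. Columns named H3mmT were taken as H3t, the one line left without a column of its own name, which the sources used here do not state. The depth of each library is unknown. Counting intervals are therefore not given, and low genes are less precise to an unknown degree. Replicates are single cultures of different lines, so p-values measure the spread between lines.

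Genes with a mean of at least 1 FPKM over the 20 libraries were tested with limma 3.58.1 (trend and robust) on log2(FPKM + 1), where fold changes of low genes are understated, with Benjamini-Hochberg adjustment over 10954 genes and a threshold of 0.05. State was tested over 20 libraries without a block, and H3 type over 18 GFP-H3 libraries in 4 groups. Growth and differentiated libraries of a line come from the same cells, and their deviations from the state means correlated by 0.272 (H3mm7) to 0.877 (WT), with each library's own line the best match for all 10, so a fit with the line as a block was the paired alternative.

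The members and lists were chosen with earlier results of these data known. Named are all members, a set of list genes chosen by role (some are not reported here), the gene of a pathway list with the largest change in each direction, and the 5 genes most like the members' mean in each state. Alternatives covered the pseudocount, filters, normalization, limma settings, a required difference and leaving out each line. Positions and repeated words come from mm9 and GENCODE vM1, promoters from RefSeq. 3′-seq and ChIP-seq were not used here. The statistical scripts were tested on simulated data. Tools were R 4.3.3, and matplotlib 3.10.9, scipy 1.17.1, pandas 2.3.3 and numpy 2.4.6 under Python 3.11.15.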

Additional observations from a re-analysis of the deposited data

Results flagged for a closer look

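In 28 groups of 6 to 10 libraries of a member in a state, the extreme library was compared with its nearest neighbour on the log2(FPKM + 1) scale. The gap between them was divided by the range of the group on that scale and set against Dixon's critical value. Chance passes this value in about 1 of 20 groups. WT lay apart in growing cells for Idi1 (11.2 FPKM, with a gap of 0.741 of the range), Fdps (67.0 FPKM, 0.549) and Cyp51 (73.5 FPKM, 0.490), low for the first pair and high for Cyp51. Among the 6 growing H3.3-type lines, H3.3 lay low for Idi1 (67.0 FPKM, 0.684) and H3mm7 lay high for Sqle (219 FPKM, 0.793). Growing H3t lay low for Srebf2 (67.6 FPKM, 0.535). Differentiated H3mm11 lay low for Lss among 10 libraries (18.2 FPKM, 0.573) and for Srebf2 among the 6 H3.3-type lines (95.2 FPKM, 0.638).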

How the results depend on the processing

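The number of members that rose on differentiation was 5, and 5 to 6 with any 1 line left out, 6 with the line as replicate block and also with it in the 9 GFP-H3 lines without WT (an alternative chosen after seeing the data), 4 after quantile normalization, and 2 (Insig1 and Fdps) where a log2 difference of 1 or more was required. The block changed no other call of a member than that of Sqle. In the type comparison of differentiated cells the count was 0 to 1 with a line left out, 1 being Cyp51 without H3mm13. Within the H3.3-type lines it was 0 under that requirement and 2 to 4 with a line left out, and within the H3.1/H3.2-type lines 3 to 5, 3 being without H3t. Of 749 values of single members under an alternative, 12 reversed their direction, none of them past the threshold. For type in growth, leaving out a line gave -0.142 to 0.04997 for Idi1, above 0 without H3t or H3.3, and -0.111 to 0.172 for Insig1, below 0 without H3t or H3mm7. For type in differentiated cells Srebf2 was -0.0799 after quantile normalization, -0.0205 after upper quartile scaling and -0.117 to 0.169 with a line left out, below 0 without H3.2 or H3.3. With a line left out the interaction of Srebf2 was -0.371 to 0.0156, above 0 without H3t, and the change of Idi1 in H3.3-type lines was -0.103 to 0.369, below 0 without H3mm12, H3mm13 or H3mm16. Where no value above shows the cause, the cause was not tested. Leaving out a line leaves its type with fewer lines, and WT has 1 library per state, so no test of WT was made. In FPKM the depth is unknown, and 1 library per line and state limits every statement on a single line.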

Other observations

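Of the 12 endoplasmic reticulum stress genes, 9 rose on differentiation over the 10 lines and none fell, with Trib3 the furthest at 3.03 ± 0.51 (SE) on the log2 scale (adjusted p = 3.56e-05, limma). None passed between the H3 types in differentiated cells, where the median difference was 0.70 and 0 of 12 had an unadjusted p under 0.05. Of the myotube markers, 6 of 6 rose, with Mylpf, a myosin light chain, the furthest at 8.21, and of the proliferation markers 4 of 4 fell, with Mcm5 the furthest at -4.39. Of the 4 myoblast markers, Cdh15 (1.49) and Des (1.40) rose and none fell. The adipocyte marker Fabp4 fell by 0.89, and of the macrophage markers Cd68, the only one tested, did not pass. In growing cells Myog was higher in the H3.3-type than in the H3.1/H3.2-type lines by 2.56 ± 0.45 (SE, adjusted p = 0.0245, limma), the only gene of the lists to pass there. That call was lost without H3.1, H3t, H3mm7, H3mm13 or H3mm16, with an adjusted p of up to 0.144 by limma, and with a pseudocount of 10 FPKM, with one of 0.309.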
